A study of Mus musculus with 22 samples.

Results

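The comparison sets 3 libraries of marrow edited with a guide RNA against Runx1 (sgRunx1 + sgLuc, replicates 1 to 3) against 3 libraries edited with a guide against Ezh2 (sgEzh2 + sgLuc, replicates 1 to 3). These 6 of the 22 libraries of the series were chosen by their labels, without reference to any measured value. Each library is the mRNA of the whole bone marrow of a mouse. Donor LSK cells, a fraction rich in blood stem and progenitor cells, came from Cas9 knock-in mice, received the guides, and went into C57Bl/6J recipients 24 h later, which had been irradiated with 7 Gy. Both groups therefore share the Cas9 allele, the C57BL/6 strain, the transplant and the partner guide sgLuc, which is directed at luciferase and has no target in the mouse. Marrow was collected at signs of leukaemia or, failing those, at 6 months, and the reason is not recorded per mouse. The labels used here also give no guide sequences, edited fraction or age. Reads of the Y-linked genes Ddx3y, Eif2s3y, Kdm5d and Uty were 0 in all 6 libraries but not in the 6 sgLuc control libraries given for reference, and the share of recipient cells left in the marrow was not measured.

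RUNX1 is the DNA-binding subunit of core binding factor and pairs with CBFB. It is needed for blood stem cells to arise in the embryo, and in adult marrow for the maturation of megakaryocytes and the early steps of the B and T lineages. EZH2 is the catalytic subunit of Polycomb complex PRC2, which keeps genes silent through methylation of histone tails and is used in early lymphocyte development. Both genes are mutated in human myeloid leukaemia and in early T cell leukaemia. The comparison asks where marrow rebuilt with either guide differs, with no control library in the contrast.

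Total counts ran from 39690068 to 45085176 in the Runx1 guide libraries and from 43269269 to 46351232 in the Ezh2 guide libraries. The 3 Runx1 guide libraries resembled each other (Pearson r of log2 levels across genes 0.990 to 0.993), as did Ezh2 guide replicates 1 and 2 (0.989). Ezh2 guide replicate 3 stood apart, with r of 0.832 to 0.880 to the other 5 libraries. Its level of S100a8, a calcium-binding protein of neutrophils, was 63.1 CPM (the read count scaled to library size with TMM factors) against 14485 to 18975 in the Runx1 guide libraries and 22806 and 18699.8 in the other Ezh2 guide libraries. Its level of Tcf7, a transcription factor of T cells, was 908 CPM against 1.25 to 4.90 and against 41.1 and 36.4. Of its 10137 reads on T cell receptor beta variable segments, 81.8% lay on Trbv13-1 (exact binomial interval 81.1% to 82.6%, counting error only), and 91.1% of its 3252 alpha variable reads lay on Trav12-3 (90.1% to 92.1%). Granulocyte genes thus dominated 5 libraries and were scarce in replicate 3, although all 6 are labelled as whole marrow. Every result below is given with all 6 libraries and again without Ezh2 guide replicate 3.

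Lower calls with the Runx1 guide covered 12 of 15 mature B cell genes, 9 of 17 B cell progenitor genes, 6 of 15 thymocyte stage genes and 5 of 15 NK and cytotoxic genes, each with and without replicate 3. Higher calls covered 7 of 20 immediate early and heat shock genes with all libraries and 6 of 20 without replicate 3. These counts moved with single libraries, as given with each list. Genes were tested with the quasi-likelihood test of edgeR in a fit to the 16 edited libraries of the series, with the false discovery rate (FDR) after Benjamini and Hochberg, and those under an FDR of 0.05 are called. A log2 fold change is the Runx1 guide over the Ezh2 guide, so a positive value is a higher level with the Runx1 guide, and ± gives its standard error. Where a pair of such values stands in parentheses, the first is from all libraries and the second from the fit without replicate 3. With all libraries 1560 of 17333 genes tested were called (9% of them), 397 higher (2.29%) and 1163 lower (6.71%) with the Runx1 guide. Without replicate 3 the count was 1301 of 17796 genes (7.31%), 415 higher (2.33%) and 886 lower (4.98%). The 2 fits shared 931 called genes (5.37% of the 17333), 234 higher (1.35%) and 697 lower (4.02%), and 0 were called in opposite directions. The shared calls are 59.7% of the calls with all libraries and 71.6% of those without replicate 3. The median log2 fold change over all genes tested was −0.09 and −0.04. The number of calls moved with single libraries. With all libraries it fell to 360, 199 or 276 when Runx1 guide replicate 1, 2 or 3 was left out. In the fit without replicate 3 it fell to 581, 478 or 561 without Runx1 guide replicate 1, 2 or 3, and to 268 or 326 without Ezh2 guide replicate 1 or 2, where the lone remaining Ezh2 guide library is assumed to vary like the other groups. Nothing in the labels says whether the mice of a group came from separate donor pools, so all p-values measure the spread between these samples only.

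**Figure D1:**
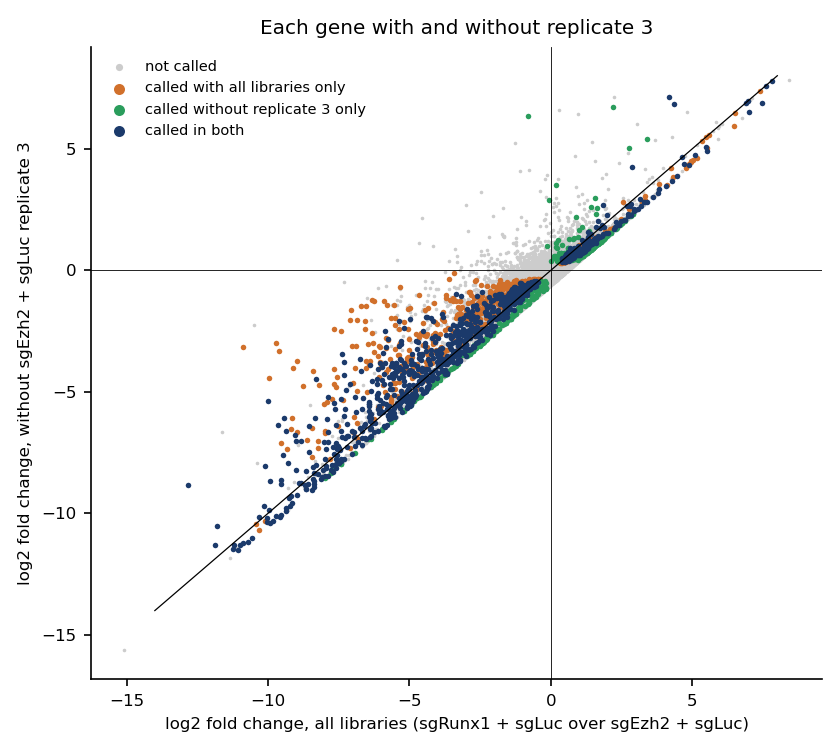
Each point is a gene, with its log2 fold change (Runx1 guide over Ezh2 guide) from the fit to all libraries on the horizontal axis and from the fit without Ezh2 guide replicate 3 on the vertical axis, and colours mark in which fit it was called. The 931 genes called in both fits have the same sign on both axes, whereas many of the 629 called only with all libraries sit above the diagonal on the left, with a smaller difference once replicate 3 is left out.

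The targeted genes themselves were compared first. Runx1 (chr16:92601466-92826149, minus strand, GENCODE M21 on GRCm38) stood at 136, 115 and 93.04 CPM in Runx1 guide replicates 1, 2 and 3 and at 85.9, 84.2 and 65.4 CPM in Ezh2 guide replicates 1, 2 and 3. All 3 Runx1 guide libraries lay above all 3 Ezh2 guide libraries, and the difference did not pass the test (log2 fold change 0.55 ± 0.18, edgeR FDR 0.0769, and 0.43 ± 0.19, FDR 0.190). Ezh2 (chr6:47530139-47595341, minus strand) stood at 98.5, 95.9 and 101 CPM with the Runx1 guide and at 59.5, 70.5 and 57.5 CPM with its own guide. Again the groups did not overlap and the difference was not called (log2 fold change 0.66 ± 0.22, edgeR FDR 0.0717, and 0.60 ± 0.24, FDR 0.144). The 6 control libraries (sgLuc) ran from 86.97 to 99.8 CPM for Runx1 and from 88.1 to 109.8 CPM for Ezh2, so that both genes lay below every control library in the Ezh2 guide libraries, while with the Runx1 guide Ezh2 lay within the control range and Runx1 lay above it in replicates 1 and 2. Bcor, the corepressor targeted elsewhere in the series, stood at 59.5, 59.3 and 52.03 CPM and 64.6, 64.97 and 155 CPM, with replicate 3 far above the rest and no call in either fit (log2 fold change −0.74 ± 0.37, edgeR FDR 0.211, and −0.19 ± 0.32, FDR 0.799). A guided cut can disable a protein without lowering its mRNA, so these levels do not measure the editing.

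The promoter windows of both targets are shown because RUNX proteins regulate the Runx1 gene itself and bind the core motif TGTGGT, which reads as ACCACA on the other strand. The sequences are from RefSeq on GRCm38.p6, 300 bases from 250 before to 50 after an annotated start, written 5′ to 3′ on the gene's strand, with matches in capitals. The distal start of Runx1 is at chr16:92826025-92826324 and the proximal start at chr16:92697280-92697579, and the start of Ezh2 is at chr6:47594981-47595280, all on the minus strand. Counted from the 5′ end of its window, the distal Runx1 start holds matches at positions 279 and 287 and Ezh2 holds 1 at position 34, while the proximal Runx1 start, rich in CpG with a GC share of 69%, holds 0. Of all 32851 windows of the table, 5506 (16.8%) hold a match.
Runx1 distal: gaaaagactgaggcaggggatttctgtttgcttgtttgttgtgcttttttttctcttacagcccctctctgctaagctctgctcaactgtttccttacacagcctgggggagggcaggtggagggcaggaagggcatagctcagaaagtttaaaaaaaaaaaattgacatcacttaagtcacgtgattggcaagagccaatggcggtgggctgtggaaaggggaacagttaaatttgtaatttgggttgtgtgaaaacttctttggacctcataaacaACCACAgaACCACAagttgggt
Runx1 proximal: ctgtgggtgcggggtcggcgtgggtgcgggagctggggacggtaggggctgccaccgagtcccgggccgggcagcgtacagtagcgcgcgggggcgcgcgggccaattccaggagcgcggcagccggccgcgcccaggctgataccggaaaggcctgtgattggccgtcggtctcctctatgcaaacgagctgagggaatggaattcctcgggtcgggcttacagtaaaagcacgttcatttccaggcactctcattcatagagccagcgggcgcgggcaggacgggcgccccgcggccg
Ezh2: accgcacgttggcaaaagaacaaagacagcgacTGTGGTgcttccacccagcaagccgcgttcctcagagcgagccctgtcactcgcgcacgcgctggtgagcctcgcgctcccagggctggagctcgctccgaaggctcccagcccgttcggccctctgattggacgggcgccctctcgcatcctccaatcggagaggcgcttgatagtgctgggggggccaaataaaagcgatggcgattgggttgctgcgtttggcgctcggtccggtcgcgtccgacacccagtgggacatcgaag

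Many genes of the B cell progenitor list were lower with the Runx1 guide. Among the 17 B cell progenitor genes, all tested, 9 were lower, 0 higher and 8 not called in each fit, against 6.71% and 4.98% of all genes lower, and 8 were called in both. Their summed level was 149, 112 and 94.9 CPM in the Runx1 guide libraries and 1367, 1241 and 1753 CPM in Ezh2 guide replicates 1, 2 and 3. The ranges did not overlap, and the 6 control libraries, at 327 to 1012 CPM, lay between them. The median log2 fold change of the list was −4.47 with all libraries and −4.62 without replicate 3. In bulk marrow fewer cells of a type and less RNA per cell cannot be told apart. Mature B cell genes, described below, were lower as well, so these calls do not tell early from mature B cells.

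Cd79a, a signalling chain of the B cell receptor, stood at 9.78, 3.29 and 2.87 CPM with the Runx1 guide and at 258, 254 and 322 CPM with the Ezh2 guide (log2 fold change −5.71 ± 1.14, edgeR FDR 0.0122, and −5.59 ± 1.23, FDR 0.0202). Pax5, which commits cells to the B lineage, stood at 4.11, 0.605 and 0.362 CPM and 123, 123 and 181 CPM (log2 fold change −6.39 ± 1.48, edgeR FDR 0.0200, and −6.19 ± 1.49, FDR 0.0288). Il7r, the interleukin 7 receptor that early B and T cells need, stood at 1.63, 1.25 and 1.47 CPM and 46.8, 44.02 and 264 CPM (log2 fold change −6.35 ± 1.29, edgeR FDR 0.0127, and −4.96 ± 1.17, FDR 0.0267). For these genes the Ezh2 guide libraries exceeded the Runx1 guide libraries many times over, and replicates 1 and 2 alone showed the same direction. Ebf1, a transcription factor that acts before Pax5, stood at 1.86, 0.515 and 0.336 CPM and 42.5, 39.4 and 32.1 CPM (log2 fold change −5.39 ± 1.38, edgeR FDR 0.0294, and −5.50 ± 1.44, FDR 0.0405). The groups did not overlap for Ebf1. The recombinase gene Rag1 was not called, with 4.80, 0.403 and 0.905 CPM against 45.4, 19.98 and 0.0188 CPM, replicate 3 being the lowest library (log2 fold change −3.42 ± 1.92, edgeR FDR 0.263, and −4.01 ± 1.73, FDR 0.196). Dntt, which adds bases at receptor junctions, showed the same order, with 13.7, 4.32 and 2.35 CPM against 98.8, 72.2 and 1.64 CPM and no call (log2 fold change −3.08 ± 1.43, edgeR FDR 0.183, and −3.66 ± 1.37, FDR 0.135). The calls of Cd79a and Pax5 ended without Runx1 guide replicate 2 or 3 in either fit (edgeR FDR up to 0.111). Those of Il7r and Ebf1 ended without any 1 of the Runx1 guide replicates (up to 0.141). In the fit without replicate 3 all 4 also ended without Ezh2 guide replicate 1 or 2. The whole list fell to 0 called members without Runx1 guide replicate 2 or 3 with all libraries, and to between 0 and 4 in the omissions from the other fit.

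Of the 17 B cell progenitor genes, 14 have 18 promoter windows in the table, and 5 of these windows (27.8%) hold the RUNX motif. Of the 14704 windows of all genes tested, 13.6% hold it. The other lists counted lay below that share. The motif is in 1 of 10 windows of the mature B cell list and 3 of 23 of the T cell identity list. It is in 2 of 16 windows of the megakaryocyte and platelet list and 0 of 21 of the immediate early and heat shock list. Whether the motif goes with the lower calls was not tested. The windows of the called genes Cd79a and Pax5 hold 0 matches and are not shown. The windows of Il7r, Ebf1 and Rag1 are shown, since they include called and uncalled members with a match. Ebf1 has another window, which holds 0 matches and is not shown. They lie at chr15:9529827-9530126 (minus strand), chr11:44617850-44618149 (plus strand) and chr2:101649483-101649782 (minus strand), with a match at position 254 in Il7r and 239 in Ebf1 and matches at 170 and 184 in Rag1. A match is a description of these letters and does not show binding.
Il7r: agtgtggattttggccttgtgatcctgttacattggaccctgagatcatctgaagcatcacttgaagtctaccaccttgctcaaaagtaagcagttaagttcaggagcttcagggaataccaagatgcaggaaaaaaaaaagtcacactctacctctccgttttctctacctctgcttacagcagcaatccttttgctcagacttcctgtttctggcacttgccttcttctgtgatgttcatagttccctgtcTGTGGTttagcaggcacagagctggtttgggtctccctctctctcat
Ebf1: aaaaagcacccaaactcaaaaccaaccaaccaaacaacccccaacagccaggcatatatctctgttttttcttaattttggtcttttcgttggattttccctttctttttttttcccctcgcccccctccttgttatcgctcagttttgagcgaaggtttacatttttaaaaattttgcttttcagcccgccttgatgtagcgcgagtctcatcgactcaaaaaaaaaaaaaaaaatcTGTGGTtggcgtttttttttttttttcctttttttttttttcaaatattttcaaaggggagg
Rag1: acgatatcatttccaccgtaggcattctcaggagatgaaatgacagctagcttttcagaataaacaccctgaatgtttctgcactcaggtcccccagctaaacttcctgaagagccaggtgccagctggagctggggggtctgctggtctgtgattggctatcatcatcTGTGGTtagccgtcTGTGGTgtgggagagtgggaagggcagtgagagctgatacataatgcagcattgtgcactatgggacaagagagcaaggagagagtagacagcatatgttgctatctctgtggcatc

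Most genes of the mature B cell list were lower as well. Of 15 genes, all tested, 12 were lower, 0 higher and 3 not called in each fit, and the same 12 were called in both. Over all genes 6.71% and 4.98% were called lower. The summed level was 1314, 1033 and 1519 CPM with the Runx1 guide and 3432, 5217 and 8604 CPM with the Ezh2 guide, without overlap, and the list's median log2 fold change was −5.61 with all libraries and −4.87 without replicate 3. Control libraries ran from 3227 to 24618 CPM, so those with the most mature B cell RNA exceeded both edited groups. Ms4a1, which encodes the surface protein CD20, stood at 1.15, 0.314 and 0.517 CPM with the Runx1 guide and 83.2, 94.6 and 288 CPM with the Ezh2 guide (log2 fold change −7.88 ± 1.07, edgeR FDR 0.00321, and −7.08 ± 0.98, FDR 0.00264). Fcmr, a receptor for IgM, stood at 1.02, 0.224 and 0.0259 CPM and 62.9, 75.3 and 105 CPM (log2 fold change −7.58 ± 1.17, edgeR FDR 0.00535, and −7.35 ± 1.16, FDR 0.00451). Both genes stood at 1.15 CPM or less in the Runx1 guide libraries and at 62.9 CPM or more in the Ezh2 guide libraries. Cr2, a complement receptor of B cells, was at 0.357, 0.224 and 0.207 CPM against 18.1, 18.3 and 156 CPM (log2 fold change −7.92 and −6.10, edgeR FDR 0.00550 and 0.00123). Cxcr5, which guides B cells to follicles, stood at 0.638, 0.336 and 0.517 CPM against 12.7, 16.4 and 43.8 CPM (log2 fold change −5.61 and −4.87, edgeR FDR 0.00306 and 0.000548). The calls of Ms4a1, Fcmr, Cr2 and Cxcr5 held in every omission from both fits. Across the omissions 7 to 12 members of the list remained called with all libraries and 7 or 8 without replicate 3, the lower counts without Runx1 guide replicate 2 or 3 and, in the second fit, without any 1 library.

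Immunoglobulin RNA followed the same direction. With all libraries 70 of the 169 variable segments tested were lower and 0 higher. Without replicate 3 it was 61 of 172 and 0, and 60 were called in both. The share of all genes called lower was 6.71% and 4.98%. Summed over the segments the level was 149, 48.1 and 42.9 CPM with the Runx1 guide and 1368, 2214 and 1525 CPM with the Ezh2 guide, so the highest Runx1 guide library (replicate 1) lay below the lowest Ezh2 guide library. Reads on heavy chain variable segments numbered 2539, 1198 and 1086 in Runx1 guide replicates 1, 2 and 3 and 24331, 41576 and 31657 in Ezh2 guide replicates 1, 2 and 3. They fell on 63, 57 and 44 of the 185 segments with the Runx1 guide and on 115, 120 and 108 with the Ezh2 guide, a count that depends on the number of reads. The most used kappa segment took 41.6%, 30.8% and 50.3% of the kappa variable reads with the Runx1 guide and 10.2%, 23.8% and 26.8% with the Ezh2 guide, without overlap. For the heavy chain the corresponding shares of 26.5%, 9.10% and 33.3% against 6.97%, 18.95% and 17.5% did overlap. Near-identical segments can share or lose reads in the authors' counting, so single segments are uncertain.

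Plasma cell genes were lower in 5 of 11 tested with all libraries and 4 of 11 without replicate 3, with 0 higher. Over all genes 6.71% and 4.98% were called lower. Jchain, which joins secreted antibody units, stood at 24.3, 8.69 and 9.15 CPM with the Runx1 guide and 469, 601 and 294 CPM with the Ezh2 guide (log2 fold change −5.02 ± 0.99, edgeR FDR 0.0118, and −5.25 ± 1.07, FDR 0.0147). Irf4, a transcription factor of plasma cells, stood at 5.08, 6.02 and 3.18 CPM and 36.4, 59.7 and 53.4 CPM (log2 fold change −3.39 ± 0.74, edgeR FDR 0.0160, and −3.33 ± 0.82, FDR 0.0313). Irf4 in replicate 3 lay between replicates 1 and 2. The summed plasma cell level of 2360.3, 2865 and 725 CPM in Ezh2 guide replicates 1, 2 and 3 was lowest in replicate 3, yet above the 269.9, 249 and 258 CPM of the Runx1 guide libraries. The Jchain call ended without Runx1 guide replicate 2 or 3 in either fit and without Ezh2 guide replicate 1 or 2 in the second (edgeR FDR up to 0.0687). The Irf4 call ended without any 1 Runx1 guide library and, in the second fit, in every omission (up to 0.160). Called members of the list numbered 1, 0 and 0 without Runx1 guide replicate 1, 2 and 3 with all libraries, and 2, 1, 1, 0 and 0 in the 5 omissions from the second fit. MHC class II genes, which antigen-presenting cells including B cells use, were lower in 4 of 10 with all libraries and 3 of 10 without replicate 3. Among them H2-DMb2, which helps to load peptides, stood at 11.6, 9.92 and 11.5 CPM against 55.7, 62.03 and 278 CPM (log2 fold change −3.58 and −2.42, edgeR FDR 0.00615 and 0.00264), and its call held in every omission. The list's calls numbered 2 without any 1 Runx1 guide library with all libraries, and 2 without Runx1 guide replicate 1 and 1 in each other omission from the second fit.

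**Figure D2:**
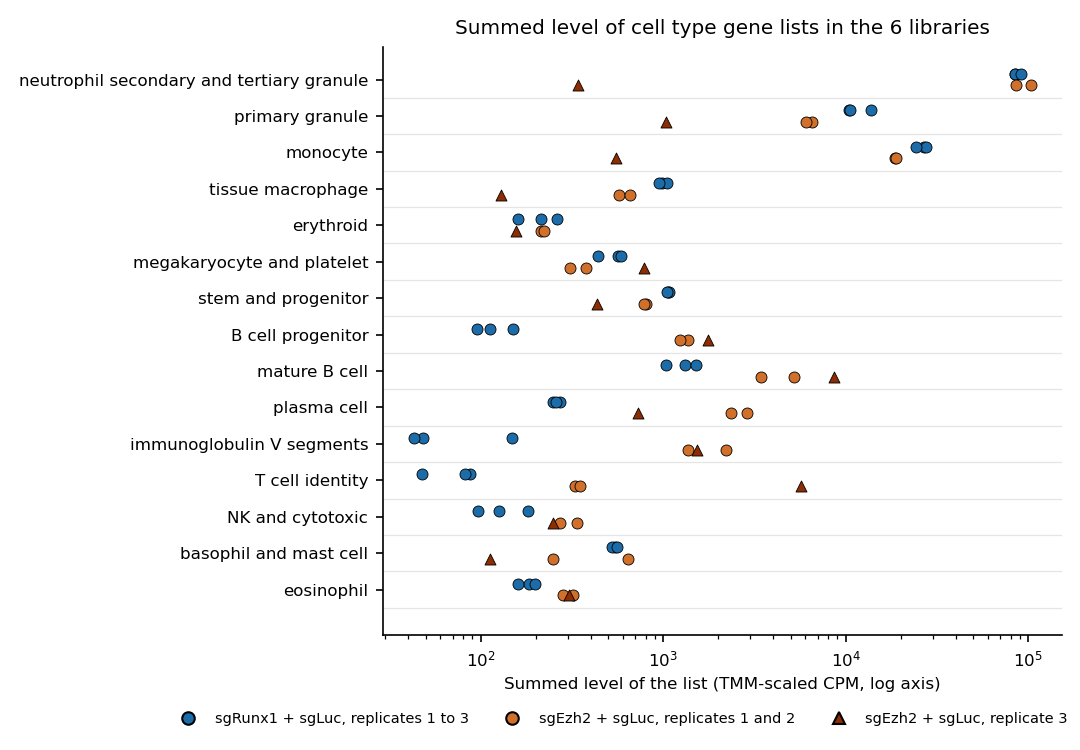
Summed TMM-scaled CPM of each cell type list (log axis) in each of the 6 libraries, circles for Runx1 guide replicates 1 to 3 and Ezh2 guide replicates 1 and 2, a triangle for Ezh2 guide replicate 3. The B cell progenitor lists of the Runx1 guide libraries (149, 112 and 94.9 CPM) lie below all Ezh2 guide libraries, and the triangle lies far right for T cell identity (5670.1 CPM) and far left for neutrophil granule genes (343 CPM).

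T cell genes depended on replicate 3. Lower calls made up 6.71% and 4.98% of all genes with all libraries and without replicate 3. Of 25 T cell identity genes, all tested, 22 were lower with the Runx1 guide with all libraries and 7 without replicate 3, with 0 higher in either. Their summed level was 87.3, 47.9 and 81.9 CPM with the Runx1 guide and 328, 350.2 and 5670.1 CPM with the Ezh2 guide, so replicates 1 and 2 too lay above every Runx1 guide library and above the 117 to 302 CPM of the controls. The median log2 fold change of the list was −5.86 with all libraries and −2.78 without replicate 3. Genes called in both fits included Cd2, Tcf7, Gata3 and Thy1. Tcf7 stood at 4.90, 1.25 and 3.10 CPM with the Runx1 guide and 41.1, 36.4 and 908 CPM with the Ezh2 guide (log2 fold change −6.74 and −3.65, edgeR FDR 0.0106 and 0.0148). Gata3, another transcription factor of T cells, stood at 0.536, 0.627 and 1.24 CPM against 4.70, 4.29 and 131 CPM (log2 fold change −5.86 and −2.48, edgeR FDR 0.0150 and 0.0323). Cd3e, a chain of the T cell receptor complex, stood at 1.89, 0.0672 and 1.91 CPM with the Runx1 guide and 1.62, 4.54 and 285 CPM with the Ezh2 guide, and its call rested on replicate 3 (log2 fold change −6.24 ± 1.80, edgeR FDR 0.0469, and −1.26 ± 1.20, FDR 0.612). Of the 22 calls with all libraries 2 remained without Runx1 guide replicate 1 and 0 without replicate 2 or 3, and of the 7 calls 2 remained without Runx1 guide replicate 1 and 0 in each other omission.

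Genes that mark stages in the thymus, several of them Notch targets, were lower in 6 of 15 tested in each fit, with 0 higher and 5 called in both. The share of all genes called lower was 6.71% and 4.98%. Dtx1, a Notch target and ubiquitin ligase, stood at 0.102, 0.0224 and 0 CPM with the Runx1 guide and at 6.34, 10.9 and 75.2 CPM with the Ezh2 guide (log2 fold change −9.46 ± 1.44, edgeR FDR 0.00504, and −7.62 ± 1.12, FDR 0.00236). Hes1, a repressor that Notch induces, stood at 0.357, 0.448 and 0.284 CPM and 4.15, 3.85 and 9.73 CPM (log2 fold change −4.01 ± 0.71, edgeR FDR 0.00728, and −3.45 ± 0.67, FDR 0.00807). Notch3, a Notch receptor, stood at 0.153, 0.314 and 0.155 CPM and 2.51, 5.32 and 0.263 CPM (log2 fold change −3.67 ± 0.83, edgeR FDR 0.0181, and −4.21 ± 0.57, FDR 0.00126), and there replicate 3 lay within the range of the Runx1 guide libraries. The Dtx1 and Hes1 calls held in every omission, and the Notch3 call with all libraries ended without any 1 Runx1 guide library (edgeR FDR up to 0.0857). The coreceptor gene Cd4, at 1.30, 0.873 and 1.24 CPM against 14.3, 19.2 and 123 CPM, was called with all libraries only (log2 fold change −5.52 and −3.88, edgeR FDR 0.0276 and 0.0913), and that call ended without any 1 Runx1 guide library (up to 0.117). The coreceptor gene Cd8a was not called in either fit, at 2.09, 0.157 and 3.96 CPM against 3.76, 10.5 and 15.8 CPM (edgeR FDR 0.297 and 0.550). The list's calls numbered 2 without any 1 Runx1 guide library with all libraries and 3 or 4 in each omission from the second fit.

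Genes of NK and cytotoxic cells were lower in 5 of 15 in each fit, all 5 in both, and 0 were higher, where 6.71% and 4.98% of all genes were lower. Gzma, a granule protease, stood at 0.332, 0.179 and 0.129 CPM with the Runx1 guide and 23.1, 12.1 and 91.1 CPM with the Ezh2 guide (log2 fold change −7.61 ± 1.42, edgeR FDR 0.00924, and −6.35 ± 1.34, FDR 0.0160). Klrb1c, the NK cell receptor NK1.1, stood at 0.715, 0.202 and 0.414 CPM and 8.41, 7.05 and 2.56 CPM (log2 fold change −3.76 ± 0.82, edgeR FDR 0.0153, and −4.12 ± 0.78, FDR 0.00724). Tbx21, a transcription factor of NK and helper T cells, stood at 0.791, 0.291 and 0.336 CPM and 10.8, 7.47 and 27.8 CPM (log2 fold change −5.02 ± 1.18, edgeR FDR 0.0213, and −4.27 ± 1.14, FDR 0.0399). In replicate 3 Gzma and Tbx21 were the highest of the 6 libraries and Klrb1c the lowest of the Ezh2 guide libraries, still above the Runx1 guide libraries. With all libraries the 3 calls ended without Runx1 guide replicate 2 or 3 and that of Tbx21 also without replicate 1 (edgeR FDR up to 0.101). In the second fit Klrb1c held in every omission, while Gzma lost its call without any 1 Runx1 guide library or Ezh2 guide replicate 1 (up to 0.0785) and Tbx21 in every omission (up to 0.166). The list's calls numbered 2, 0 and 0 without Runx1 guide replicate 1, 2 and 3 with all libraries and 2 or 3 in each omission from the second fit.

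Basophil and mast cell genes were mixed. Of 14 tested, 5 were lower and 1 higher with all libraries, and 6 were lower and 2 higher without replicate 3, with 4 lower and 1 higher in both. Fcer1a encodes the IgE-binding chain of the high-affinity IgE receptor. It stood at 0.0255, 0 and 0.0259 CPM with the Runx1 guide, 2 reads in all, and at 17.8, 2.57 and 0.0753 CPM with the Ezh2 guide. The ratio of the groups' CPM was 385 with a 95% counting interval of 106 to 3182, and 606 (167 to 5010.2) without replicate 3 (edgeR FDR 0.0239 and 0.00386). Ezh2 guide replicate 1 was high, replicate 2 lower and replicate 3 close to the Runx1 guide libraries. Prss34, a basophil protease, showed this order as well, with 0.791, 0.0224 and 0.181 CPM against 192, 10.9 and 0.546 CPM (log2 fold change −7.69 ± 1.74, edgeR FDR 0.0183, and −8.28 ± 1.28, FDR 0.00429), one Runx1 guide library lying above Ezh2 guide replicate 3. Cyp11a1, a steroid-making enzyme found in basophils and mast cells, had 0 reads with the Runx1 guide and 5.15, 2.46 and 0.320 CPM with the Ezh2 guide, at least 102-fold lower over the group floor of 3 reads, and at least 153-fold lower without replicate 3 (edgeR FDR 0.0149 and 0.00324). In the control libraries Fcer1a ran from 11.1 to 39.7 CPM and Prss34 from 189 to 647 CPM, above every edited library compared here but Ezh2 guide replicate 1 for both genes.

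Hdc, the enzyme that makes histamine, went the other way, with 376, 372 and 392 CPM with the Runx1 guide against 179.8, 128 and 62.7 CPM (log2 fold change 1.62 ± 0.32, edgeR FDR 0.0118, and 1.31 ± 0.26, FDR 0.00889), and its groups did not overlap. With all libraries the list had 0 lower calls without any 1 Runx1 guide library, and in the second fit between 3 and 6. The calls of Fcer1a, Prss34 and Cyp11a1 with all libraries ended without any 1 Runx1 guide library (edgeR FDR up to 0.105) and held in every omission from the second fit. That of Hdc ended without Runx1 guide replicate 2 with all libraries (0.0501) and without Ezh2 guide replicate 2 in the second fit (0.110). Where 6.71% and 4.98% of all genes were lower, eosinophil genes were lower in 3 of 10 and 3 of 11 tested. Among them Ear2, an eosinophil ribonuclease, stood at 2.17, 2.22 and 1.45 CPM against 64.1, 52.5 and 6.42 CPM (log2 fold change −4.40 and −4.90, edgeR FDR 0.0127 and 0.00355). The Ear2 call with all libraries also ended without any 1 Runx1 guide library (up to 0.0675) and held in every omission from the second fit. Siglecf, a lectin of eosinophils, was higher without replicate 3 only (log2 fold change 1.87 and 1.28, edgeR FDR 0.200 and 0.0129), a call that ended without Ezh2 guide replicate 2 (edgeR FDR 0.148).

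The window of Fcer1a is shown because Fcer1a is also among the 24 genes with the largest differences, described below. Of the 12 lower of those genes 9 have 10 windows, and the RUNX motif is in 1 of these, that of Fcer1a. Of the 12 higher genes 6 have 6 windows, and 0 hold it. Among the windows of all genes tested 13.6% hold the motif, so counts this small do not set the directions apart. Over all genes called in both fits the motif is in 97 of 598 windows of lower genes and 33 of 232 windows of higher genes. The Fcer1a window lies at chr1:173227180-173227479 on the minus strand, with the match at position 237.
Fcer1a: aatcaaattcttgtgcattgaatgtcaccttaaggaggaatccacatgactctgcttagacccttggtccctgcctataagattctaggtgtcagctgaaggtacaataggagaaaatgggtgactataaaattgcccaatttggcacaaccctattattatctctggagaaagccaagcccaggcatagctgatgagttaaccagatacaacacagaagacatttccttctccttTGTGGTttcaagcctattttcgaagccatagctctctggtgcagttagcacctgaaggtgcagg

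Neutrophil granule genes were tested next. Of 18 genes of the secondary and tertiary granules 0 were called in either fit, and the median log2 fold change was 0.83 with all libraries and 0.26 without replicate 3. Primary granule genes, which promyelocytes express, were higher in 1 of 10 with all libraries (Cst7) and in 3 of 10 without replicate 3 (Mpo, Elane and Ctsg), with 0 lower and 0 called in both. The share of all genes called higher was 2.29% and 2.33%. Mpo, the myeloperoxidase gene, stood at 4498, 4449 and 5421 CPM with the Runx1 guide and 2141, 2176 and 8.22 CPM with the Ezh2 guide (log2 fold change 1.73 ± 0.99, edgeR FDR 0.272, and 1.15 ± 0.19, FDR 0.00378). Elane, neutrophil elastase, stood at 2126, 2203 and 3179 CPM and 1191, 1019 and 3.73 CPM (log2 fold change 1.76 ± 1.01, edgeR FDR 0.272, and 1.18 ± 0.23, FDR 0.00878). The control libraries, from 1574 to 6219 CPM for Mpo, covered the Runx1 guide libraries and Ezh2 guide replicates 1 and 2. The list's calls in the second fit numbered 0 without Ezh2 guide replicate 1 and 1 without replicate 2. The Mpo call ended without Ezh2 guide replicate 1 (edgeR FDR 0.0518) and the Elane call without replicate 1 or 2 (up to 0.100).

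Among 15 monocyte genes 1 was higher (Cd14) and 1 lower (Ace), in both fits, so that the lower share, 6.67%, lay beside the 6.71% and 4.98% of all genes. Cd14, part of the receptor for bacterial lipopolysaccharide, stood at 254, 323 and 224 CPM with the Runx1 guide and 52.6, 58.9 and 1.13 CPM with the Ezh2 guide, with controls from 12.6 to 36.96 CPM (log2 fold change 2.83 ± 0.81, edgeR FDR 0.0457, and 2.26 ± 0.25, FDR 0.000379). Ace, angiotensin-converting enzyme, which marks patrolling monocytes, stood at 2.50, 3.31 and 1.34 CPM and 39.04, 42.3 and 22.7 CPM, with controls from 15.6 to 77.6 CPM (log2 fold change −3.86 ± 0.71, edgeR FDR 0.00892, and −4.09 ± 0.73, FDR 0.00690). Cd14 in every Runx1 guide library and Ezh2 guide replicates 1 and 2 thus exceeded the control range, and Ace in every Runx1 guide library lay below it. Of 16 tissue macrophage genes tested 2 were higher, in both fits, where 2.29% and 2.33% of all genes were higher. Vcam1, an adhesion molecule of marrow macrophages and stroma, stood at 193, 157 and 211 CPM against 23.3, 29.99 and 3.69 CPM (log2 fold change 3.30 ± 0.62, edgeR FDR 0.00924, and 2.81 ± 0.47, FDR 0.00529). Mrc1, the mannose receptor, stood at 43.4, 40.1 and 40.1 CPM against 8.62, 10.8 and 1.22 CPM (log2 fold change 2.58 and 2.09, edgeR FDR 0.0298 and 0.0312). The Cd14 call with all libraries ended without any 1 Runx1 guide library or Ezh2 guide replicate 1 or 2 (edgeR FDR up to 0.126) and held in the second fit. That of Ace ended with all libraries without Runx1 guide replicate 3 (0.0525), and that of Vcam1 in the second fit without Ezh2 guide replicate 1 (0.0742). The Mrc1 call ended without any 1 Runx1 guide library in both fits and without Ezh2 guide replicate 1 or 2 in the second (up to 0.222).

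Some megakaryocyte and platelet genes were higher with the Runx1 guide. Of 20 tested, 5 were higher and 1 lower with all libraries, 3 were higher and 0 lower without replicate 3, and 3 were higher in both. Over all genes 2.29% and 2.33% were called higher. The list's summed level was 567, 589.6 and 439 CPM with the Runx1 guide and 376, 308 and 784 CPM with the Ezh2 guide, where Nrgn, a calmodulin-binding protein and the lower gene, made up 621 CPM of the level of replicate 3. Selp, the platelet and endothelial adhesion protein P-selectin, stood at 36.9, 39.5 and 25.1 CPM with the Runx1 guide and 6.07, 8.12 and 0.282 CPM with the Ezh2 guide (log2 fold change 2.81 ± 0.72, edgeR FDR 0.0298, and 2.25 ± 0.35, FDR 0.00279). Tubb1, the beta tubulin of platelets, stood at 2.91, 2.31 and 1.63 CPM and 0.114, 0.0631 and 0.0941 CPM (log2 fold change 4.62 ± 0.87, edgeR FDR 0.00924, and 4.65 ± 1.03, FDR 0.0156). Gp5, platelet glycoprotein V, stood at 4.44, 6.85 and 6.05 CPM and 1.32, 0.526 and 0.621 CPM (log2 fold change 2.81 ± 0.59, edgeR FDR 0.0142, and 2.64 ± 0.67, FDR 0.0281). All 3 genes had non-overlapping groups, and in all 3 the Runx1 guide libraries also exceeded the highest control library, which stood at 10.1, 0.361 and 1.82 CPM. Pf4, the chemokine platelet factor 4, was not called, at 8.63, 9.90 and 10.6 CPM against 2.39, 3.49 and 0.188 CPM (edgeR FDR 0.115 and 0.184). Itga2b, integrin alpha IIb, was not called either, at 34.9, 41.6 and 40.1 CPM against 22.003, 10.8 and 1.71 CPM (edgeR FDR 0.0821 and 0.0649). With all libraries 2, 1 and 1 higher calls remained in the list without Runx1 guide replicate 1, 2 and 3, and 1 or 2 in each omission from the second fit. With all libraries the Selp call ended without any 1 Runx1 guide library (edgeR FDR up to 0.0955) and the Gp5 call without Runx1 guide replicate 2 or 3 (up to 0.0622). In the second fit the Tubb1 call ended without Ezh2 guide replicate 1 or 2 (up to 0.143) and the Gp5 call in every omission (up to 0.234).

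Of 23 stem and progenitor genes, all tested, 1 was higher with all libraries (Myb) and 4 without replicate 3 (Cd34, Meis1, Prom1 and Tek), with 0 lower and 0 in both. The share of all genes called higher was 2.29% and 2.33%. Cd34 stood at 124, 127 and 105 CPM with the Runx1 guide and at 50.98, 54.5 and 0.207 CPM with the Ezh2 guide (log2 fold change 1.75 ± 0.93, edgeR FDR 0.238, and 1.17 ± 0.22, FDR 0.00691). Meis1, a Hox cofactor of stem cells, stood at 11.8, 12.3 and 9.80 CPM and 4.74, 5.26 and 0.151 CPM (log2 fold change 1.74 ± 0.71, edgeR FDR 0.134, and 1.18 ± 0.27, FDR 0.0177). For both genes replicate 3 was the lowest library and replicates 1 and 2 stood between it and the Runx1 guide libraries. The Cd34 call ended without Ezh2 guide replicate 1 or 2 (edgeR FDR up to 0.0812) and the Meis1 call also without Runx1 guide replicate 1 or 2 (up to 0.153). Of the 4 calls 1, 1 and 3 remained without Runx1 guide replicate 1, 2 and 3 and 0 without either Ezh2 guide replicate.

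**Figure D3:**
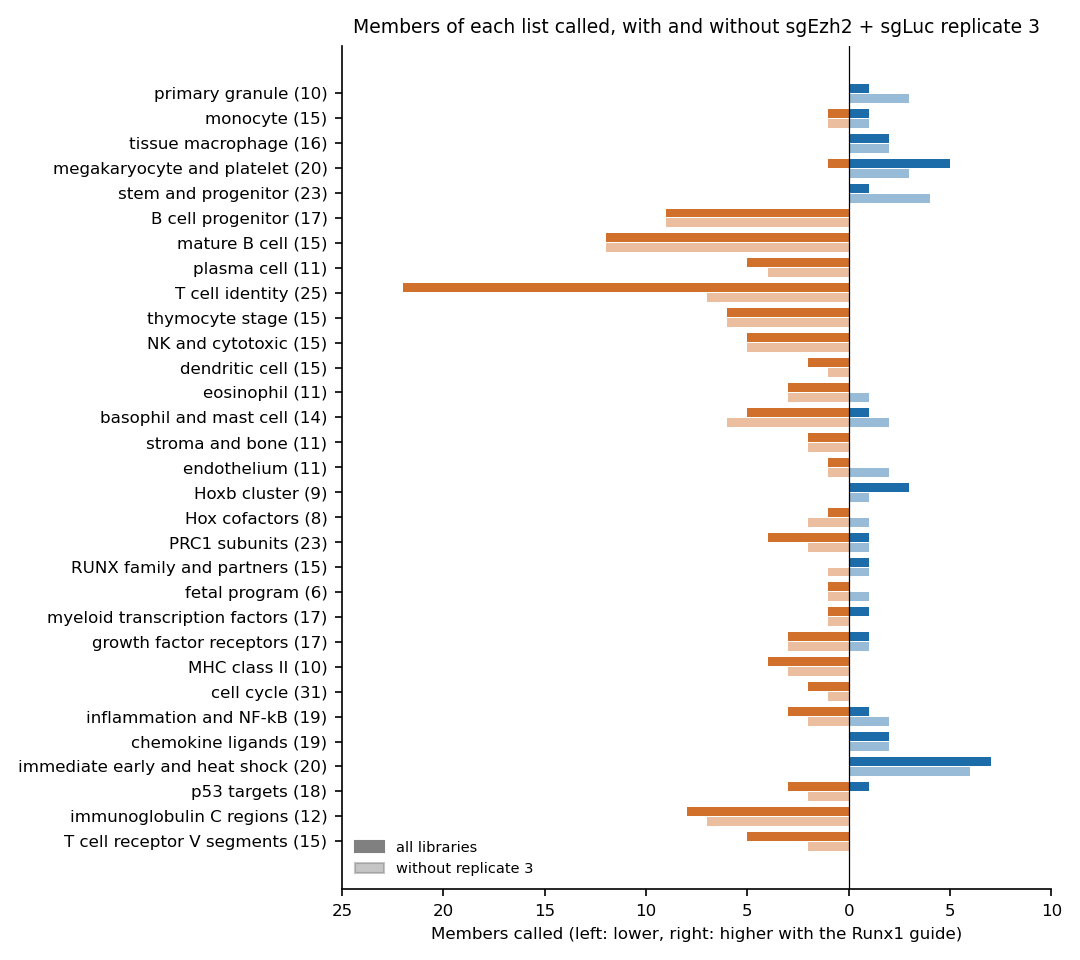
Number of members of gene lists called lower (left) or higher (right) with the Runx1 guide. Dark bars are from all libraries and pale bars from the fit without Ezh2 guide replicate 3, with the larger number of members tested in parentheses. Only lists with at least 3 calls counted over both fits are drawn, and the immunoglobulin variable segments are left out. T cell identity drops from 22 to 7 lower without replicate 3, whereas mature B cell stays at 12 and B cell progenitor at 9.

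Some immediate early genes, which cells switch on within minutes of a stimulus, were higher with the Runx1 guide. Of 20 immediate early and heat shock genes 7 were higher with all libraries and 6 without replicate 3, with 0 lower and 5 in both, against 2.29% and 2.33% of all genes higher. The list's median log2 fold change was 1.14 with all libraries and 1.02 without replicate 3. Fosb stood at 1828, 2048 and 2136 CPM with the Runx1 guide and 449, 719 and 821 CPM with the Ezh2 guide (log2 fold change 1.60 ± 0.36, edgeR FDR 0.0176, and 1.78 ± 0.40, FDR 0.0175). Klf6, a zinc finger transcription factor, stood at 842, 877 and 727 CPM and 306, 370.1 and 173 CPM (log2 fold change 1.53 ± 0.26, edgeR FDR 0.00637, and 1.27 ± 0.21, FDR 0.00378). Dusp1, a phosphatase that ends MAP kinase signals, stood at 2001, 2169.8 and 1912 CPM and 836, 693 and 415 CPM (log2 fold change 1.65 ± 0.32, edgeR FDR 0.00989, and 1.41 ± 0.29, FDR 0.0117). The groups did not overlap for any of these 3 genes, and all Runx1 guide libraries exceeded every control library for all 3. The controls themselves spread widely, from 0.259 to 626 CPM for Fosb and from 29.7 to 1322 CPM for Dusp1. The call of Fosb ended without any 1 Runx1 guide library with all libraries and without Runx1 guide replicate 2 or 3 or Ezh2 guide replicate 1 or 2 in the second fit (edgeR FDR up to 0.176). That of Dusp1 ended without Runx1 guide replicate 2 with all libraries and without Ezh2 guide replicate 1 or 2 in the second fit (up to 0.116), and that of Klf6 in the second fit without Ezh2 guide replicate 1 (0.0634). Across the omissions 1 to 8 members of the list were called with all libraries and 0 to 3 without replicate 3.

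In the NF-kB list of 19 genes 1 was higher and 3 lower with all libraries, and 2 were higher and 2 lower without replicate 3. Of all genes tested 2.29% and 2.33% were higher and 6.71% and 4.98% lower. The list's summed level ran from 2143 to 2342 CPM with the Runx1 guide and from 1472 to 1587 CPM with the Ezh2 guide, without overlap. Nfkb2, a subunit of the noncanonical arm, stood at 49.4, 48.5 and 47.1 CPM against 77.7, 81.4 and 101 CPM (log2 fold change −0.85 ± 0.16, edgeR FDR 0.00944, and −0.72 ± 0.16, FDR 0.0155). Nfkbiz, a nuclear coactivator of inflammatory genes, stood at 286, 338 and 316 CPM against 170.0, 197 and 120.3 CPM (log2 fold change 0.95 ± 0.19, edgeR FDR 0.0122, and 0.77 ± 0.17, FDR 0.0148). Both calls ended without Runx1 guide replicate 2 or 3 with all libraries (edgeR FDR up to 0.0617) and without Runx1 guide replicate 2 or Ezh2 guide replicate 1 or 2 in the second fit (up to 0.160), that of Nfkb2 there also without Runx1 guide replicate 3. Of 24 type I interferon response genes 0 were called in either fit, and likewise 0 of 44 ribosomal protein genes, 0 of 20 oxidative phosphorylation genes and 0 of 17 cholesterol synthesis genes. Of 18 glycolysis genes 1 was higher in both fits, where 2.29% and 2.33% of all genes were higher. It was the hexokinase gene Hk1, at 195, 198 and 193 CPM against 124, 115 and 67.4 CPM (log2 fold change 0.93 and 0.71, edgeR FDR 0.0127 and 0.00704). With all libraries the list had 0 higher calls without Runx1 guide replicate 2 or 3. In the second fit it had 1 without any 1 Runx1 guide library. The Hk1 call there ended without Ezh2 guide replicate 1 or 2, which leaves 1 Ezh2 guide library. Of 18 p53 target genes 1 was higher and 3 lower with all libraries and 2 were lower without replicate 3, against 2.29% of all genes higher and 6.71% and 4.98% lower. Perp, a desmosome protein that p53 induces, was among the lower genes. Perp stood at 0.204, 0.336 and 0.233 CPM against 2.80, 2.40 and 2.26 CPM (log2 fold change −3.25 and −3.32, edgeR FDR 0.00306 and 0.00126), and its call held in every omission.

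Polycomb and RUNX genes were compared as families. Of 12 PRC2 genes tested, Ezh2 among them, 0 were called in either fit. Ezh1, the related methyltransferase, stood at 45.7, 49.4 and 40.2 CPM against 45.4, 50.4 and 40.97 CPM. The core subunit genes Eed and Suz12 stood at 48.4, 51.2 and 54.5 CPM against 53.6, 55.1 and 62.4 CPM and at 139, 130.2 and 134 CPM against 115, 117 and 147 CPM, with overlapping groups. Of 23 PRC1 genes tested, 1 was higher and 4 lower with all libraries and 1 was higher and 2 lower without replicate 3, where 9% and 7.31% of all genes were called. Bmi1, a core PRC1 subunit that sustains stem cells, stood at 24.2, 24.3 and 25.96 CPM with the Runx1 guide and 83.8, 37.3 and 95.3 CPM with the Ezh2 guide, where replicates 1 and 3 lay at more than 2 times replicate 2, and at 23.7 to 31.2 CPM in the controls (log2 fold change −1.54 ± 0.30, edgeR FDR 0.0106, and −1.29 ± 0.30, FDR 0.0201). Cbx7, another PRC1 subunit, stood at 20.1, 21.4 and 19.8 CPM and 47.6, 57.4 and 211 CPM (log2 fold change −2.36 ± 0.45, edgeR FDR 0.00953, and −1.36 ± 0.22, FDR 0.00339). The groups did not overlap for either gene, and the Runx1 guide libraries lay within the control range for Bmi1 and below the 32.8 to 49.7 CPM of the controls for Cbx7. The Bmi1 calls ended without any 1 Runx1 guide library (edgeR FDR up to 0.0577 with all libraries) and, in the second fit, without Ezh2 guide replicate 1 (0.364). The 4 lower calls of the list with all libraries came to 1, 0 and 0 without Runx1 guide replicate 1, 2 and 3. The Cbx7 call with all libraries ended without Runx1 guide replicate 2 or 3 (up to 0.0533). Of 15 genes tested in the list of the RUNX family and its partners, 1 was higher with all libraries, 1 was higher and 1 lower without replicate 3, and 0 were called in both. The shares of all genes were 2.29% and 2.33% higher and 6.71% and 4.98% lower. Myb, a transcription factor of progenitors, was the higher one with all libraries (edgeR FDR 0.0457 and 0.104), and Cbfa2t3, a corepressor, the lower one (0.256 and 0.0328). Runx3 was higher without replicate 3, at 70.3, 71.6 and 66.7 CPM against 47.5, 39.8 and 68.6 CPM (log2 fold change 0.42 ± 0.17, edgeR FDR 0.131, and 0.67 ± 0.13, FDR 0.00968), a call that ended without Ezh2 guide replicate 2 (0.123). The partner gene Cbfb was not called, at 170.3, 167 and 144 CPM against 155, 154 and 152 CPM (edgeR FDR 0.761 and 0.858).

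Genes of the fetal blood program and of the Hox clusters, many of them Polycomb targets, were compared list by list. Of all genes tested 2.29% and 2.33% were higher and 6.71% and 4.98% lower. With 6 or 9 genes tested per list, a share rests on few genes. In the fetal list 6 of 14 genes passed the filter on low counts, of which 1 was lower with all libraries and 1 higher and 1 lower without replicate 3. Igf2bp3, an RNA-binding protein of fetal blood cells, was lower with the Runx1 guide in both fits, at 0.459, 0.157 and 0.259 CPM against 9.90, 2.29 and 9.18 CPM (log2 fold change −4.60 ± 0.74, edgeR FDR 0.00550, and −4.38 ± 0.75, FDR 0.00425), and at 0.0317 to 0.551 CPM in the controls, below each Ezh2 guide library. Hmga2, a chromatin protein of fetal stem cells, stood at 11.1, 9.70 and 5.22 CPM with the Runx1 guide and 1.76, 0.568 and 25.2 CPM with the Ezh2 guide. Its difference had opposite signs in the 2 fits and was called in the second (log2 fold change −0.09 ± 0.87, edgeR FDR 0.960, and 2.90 ± 0.46, FDR 0.00303), since replicate 3 held more Hmga2 than every Runx1 guide library and replicates 1 and 2 held less. Control libraries ran from 0.0631 to 1.00 CPM. The Igf2bp3 call ended in the second fit without Ezh2 guide replicate 1 (edgeR FDR 0.0869), and that of Hmga2 held in each omission from that fit. Of 9 Hoxb genes tested 3 were higher with all libraries and 1 (Hoxb5) without replicate 3, with 0 lower in either. The median log2 fold change of the Hoxb list was 1.67 with all libraries and 1.35 without replicate 3. Its summed level was 28.7, 32.9 and 32.0 CPM with the Runx1 guide and 18.2, 15.5 and 3.97 CPM with the Ezh2 guide, without overlap. Control libraries ran from 14.3 to 19.7 CPM, below every Runx1 guide library. Hoxb5 stood at 3.06, 3.58 and 2.17 CPM against 0.296, 0.105 and 0 CPM (log2 fold change 4.46 ± 1.12, edgeR FDR 0.0270, and 3.86 ± 1.06, FDR 0.0412). The Hoxb5 call ended without any 1 Runx1 guide library or Ezh2 guide replicate 2 with all libraries and in every omission from the second fit (up to 0.273). The list's calls with all libraries numbered 1, 0 and 0 without Runx1 guide replicate 1, 2 and 3, and 2 and 0 without Ezh2 guide replicate 1 and 2. Of 9 Hoxa genes tested 0 were called, with Hoxa9 at 5.21, 5.80 and 5.92 CPM against 6.27, 4.61 and 0.0941 CPM.

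The largest differences shared by both fits were then taken by a set rule, with 12 named in each direction. The rule asks for a mean of at least 2 CPM over the 6 libraries and no overlap between the groups, which 215 higher and 494 lower genes met. No overlap alone is common, since 34.1% of all genes tested showed it. Among the 12 higher genes Fam19a4, which encodes a secreted chemokine-like protein, stood at 7.07, 6.90 and 6.44 CPM with the Runx1 guide and 0.114, 0 and 0 CPM with the Ezh2 guide, 5 reads in all (log2 fold change 7.46 ± 0.96, edgeR FDR 0.00306, and 6.86 ± 0.89, FDR 0.000933). Lhx1, a homeodomain transcription factor, stood at 10.8, 13.2 and 5.35 CPM and 0.502, 0.147 and 0 CPM (log2 fold change 5.51 ± 1.01, edgeR FDR 0.00831, and 4.91 ± 0.82, FDR 0.00379). Scarf1, a scavenger receptor, stood at 28.9, 24.3 and 40.6 CPM and 2.23, 3.87 and 0.583 CPM (log2 fold change 3.81 ± 0.56, edgeR FDR 0.00413, and 3.35 ± 0.44, FDR 0.00126). Each of the 3 stood several times higher in every Runx1 guide library than in any Ezh2 guide library, and the sgLuc libraries ran from 0 to 0.252, from 0.726 to 2.24 and from 3.76 to 13.8 CPM, below every Runx1 guide library for all 3.

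Nectin2, an adhesion molecule, stood at 9.39, 9.23 and 10.2 CPM with the Runx1 guide and 0.935, 1.96 and 1.15 CPM with the Ezh2 guide (log2 fold change 2.83 ± 0.38, edgeR FDR 0.00321, and 2.72 ± 0.43, FDR 0.00303). Ccl24, the chemokine eotaxin-2, stood at 17.97, 15.005 and 19.2 CPM and 1.00, 0.694 and 0.320 CPM (log2 fold change 4.69 ± 0.77, edgeR FDR 0.00584, and 4.35 ± 0.86, FDR 0.0116). The other 7 were Faim2, A830012C17Rik, Clec4b2, Ptprm, Vcam1, Ifitm7 and Gp5, with log2 fold changes of 2.81 to 5.10 with all libraries and 2.64 to 4.72 without replicate 3. In the sgEzh2 + sgRunx1 libraries, which carry both guides, Ccl24 ran from 14.1 to 36.4 CPM and Nectin2 from 13.5 to 22.8 CPM, above the Runx1 guide libraries for Nectin2 and overlapping them for Ccl24. Fam19a4 there ran from 1.41 to 2.48 CPM, between the 2 groups. Calls of Fam19a4, Scarf1 and Nectin2 held in every omission from both fits. The other 9 lost a call in some. With all libraries this was so for A830012C17Rik without Runx1 guide replicate 2, Ptprm without replicate 1 or 2, Gp5 without replicate 2 or 3, Clec4b2 without any of the 3, and Ifitm7 without any of the 3 or Ezh2 guide replicate 1. In the second fit it was so for Lhx1 without Ezh2 guide replicate 2, Vcam1 without replicate 1, Ccl24, Faim2 and Ifitm7 without either, Ptprm without either or Runx1 guide replicate 2, and Gp5 in every omission. The lost calls had an edgeR FDR of at most 0.234.

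Of the 12 lower genes, Pxdc1 had 0 reads in the 3 Runx1 guide libraries and 4.72, 4.06 and 22.7 CPM in the Ezh2 guide libraries, at least 454-fold lower with the Runx1 guide and at least 179-fold lower without replicate 3 (edgeR FDR 0.00584 and 0.00239). Chl1, a cell adhesion molecule of the L1 family, also had 0 reads, against 1.25, 1.47 and 60.6 CPM, at least 945-fold and, without replicate 3, at least 55.8-fold lower (edgeR FDR 0.0158 and 0.0188). Cldn1, a tight junction protein, had 3 reads, against 28.5, 24.8 and 0.320 CPM, a ratio of 691 (95% counting interval 236 to 3353) and, without replicate 3, of 1085 (371 to 5266) (edgeR FDR 0.00924 and 0.000498). Replicate 3 was the highest library for Pxdc1 and Chl1 and lay nearest to the Runx1 guide libraries for Cldn1. The gene 4930426D05Rik had 1 read, against 9.53, 11.1 and 12.6 CPM, a ratio of 1370 (245 to 54134) and of 1269 (227 to 50187) without replicate 3.

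Scd1, the enzyme that makes monounsaturated fatty acids, stood at 0.868, 0.224 and 0.233 CPM with the Runx1 guide and 49.8, 56.1 and 102 CPM with the Ezh2 guide (log2 fold change −7.29 ± 0.97, edgeR FDR 0.00321, and −6.91 ± 0.97, FDR 0.00264). Alpl, alkaline phosphatase, stood at 0.102, 0.0224 and 0.0259 CPM and 9.17, 4.44 and 66.7 CPM (log2 fold change −9.00 ± 2.03, edgeR FDR 0.0181, and −7.02 ± 1.86, FDR 0.0410). Myl4, a myosin light chain, stood at 0.102, 0.134 and 0.284 CPM and 35.1, 40.5 and 7.72 CPM (log2 fold change −7.31 ± 1.49, edgeR FDR 0.0128, and −7.75 ± 1.57, FDR 0.0142). Replicate 3 was the highest library for Scd1 and Alpl and the lowest of the Ezh2 guide libraries for Myl4. Cacna1i, a calcium channel subunit, stood at 0.306, 0 and 0 CPM and 14.05, 14.2 and 32.2 CPM (log2 fold change −7.61 ± 1.61, edgeR FDR 0.0142, and −7.10 ± 1.59, FDR 0.0201). The remaining 4, Fcer1a, Dtx1, Fcmr and Ms4a1, are described with their lists. Control libraries ran from 11.8 to 45.5 CPM for Scd1 and 3.30 to 16.98 CPM for Myl4, between the 2 groups. Calls of Pxdc1, Dtx1, Fcmr, Ms4a1 and Scd1 held in every omission from both fits, and the other 7 lost a call in some, with every loss at an edgeR FDR of at most 0.162. With all libraries the calls of Cldn1 and Cacna1i ended without Runx1 guide replicate 2 or 3 and those of the other 5 without any 1 Runx1 guide library. In the second fit the calls of Chl1, 4930426D05Rik, Myl4 and Alpl ended in each omission, that of Cacna1i in each but that of Runx1 guide replicate 1, and those of Cldn1 and Fcer1a in none.

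**Figure D4:**
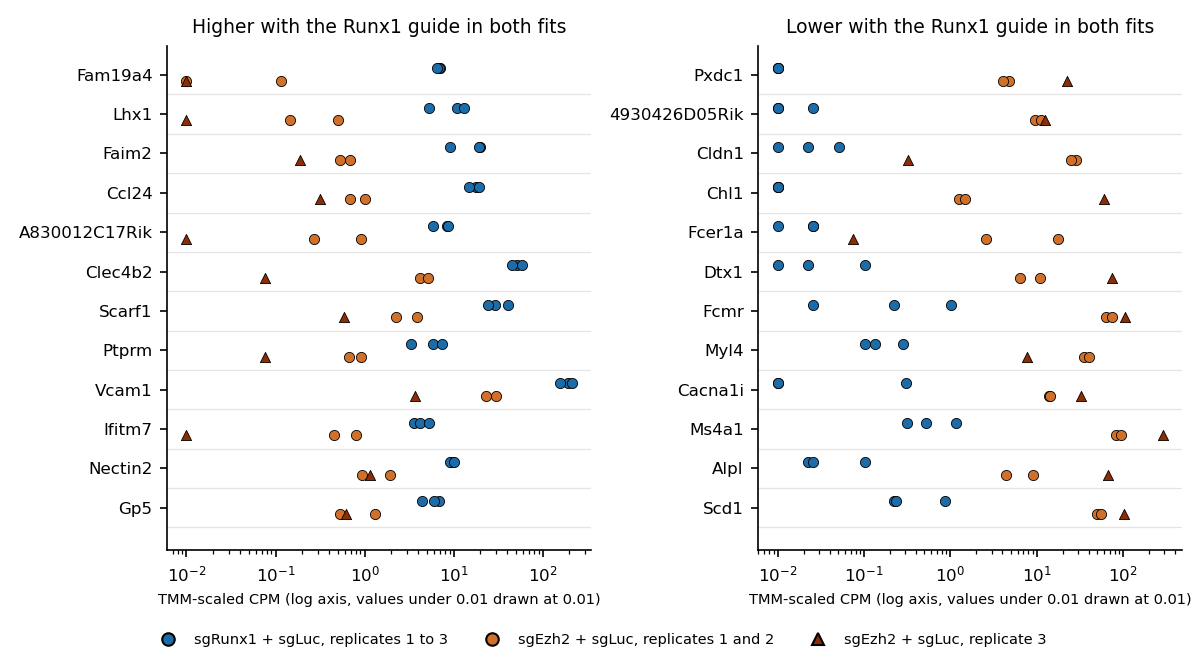
Level of the 12 genes higher and the 12 genes lower with the Runx1 guide in both fits (TMM-scaled CPM, log axis, values under 0.01 drawn at 0.01) in each of the 6 libraries, circles for Runx1 guide replicates 1 to 3 and Ezh2 guide replicates 1 and 2 and a triangle for Ezh2 guide replicate 3. The groups separate for every gene, as the rule requires, and the triangle lies at the far right for Chl1 (60.6 CPM) and beside the Runx1 guide libraries for Cldn1 (0.320 CPM).

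Genes called with all libraries that had an unadjusted p of 0.05 or more without replicate 3 numbered 41, of which 27 met the level and overlap rule, all lower with the Runx1 guide and 0 higher. The 3 with the largest difference were Cd5, Mfsd2a and Catsperd. Cd5, a T cell surface receptor, stood at 1.12, 0.224 and 1.24 CPM with the Runx1 guide and 2.01, 5.05 and 294 CPM with the Ezh2 guide (log2 fold change −6.87 ± 1.76, edgeR FDR 0.0294, and −2.03 ± 1.10, FDR 0.311). Mfsd2a, a lipid transporter, stood at 0.0510, 0 and 0.0776 CPM and 0.160, 0.210 and 12.3 CPM (log2 fold change −6.57 ± 1.80, edgeR FDR 0.0379, and −2.07 ± 1.33, FDR 0.414). Catsperd, a gene of a sperm ion channel, stood at 0.128, 0.112 and 0.129 CPM and 0.547, 0.147 and 34.3 CPM (log2 fold change −6.54 ± 1.77, edgeR FDR 0.0362, and −1.47 ± 1.14, FDR 0.516). In each of them replicate 3 alone stood high, and with all libraries the calls also ended without any 1 Runx1 guide library. Conversely, 370 genes were called only without replicate 3, and in 238 of these replicate 3 lay outside the range of the other 5 libraries.

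Groups outside the contrast show on which side of it each gene differed from other marrow. For each gene called in both fits, the distance on log2(CPM + 0.5) of a group's mean to the Runx1 guide mean and to the mean of Ezh2 guide replicates 1 and 2 was compared, as a description with no test. The 6 control libraries also stand apart in sex-linked genes. Reads of Ddx3y numbered 1291 to 3425 in them and 0 in all 16 edited libraries, and reads of the X-linked Xist 1 to 4515 against 10476 to 34044. Differences between controls and edited libraries from the guides and from sex therefore cannot be told apart. The sgLuc controls lay nearer to the Ezh2 guide for 178 of the 234 higher genes (76.1%) and for 524 of the 697 lower genes (75.2%). The sgBcor + sgLuc libraries did so for 186 (79.5%) and 525 (75.3%). The sgEzh2 + sgRunx1 libraries lay nearer to the Runx1 guide for 147 (62.8%) of the higher and 576 (82.6%) of the lower genes, and the sgBcor + sgRunx1 libraries for 177 (75.6%) and 664 (95.3%). Groups with the Runx1 guide thus sat mostly on the Runx1 side and groups without it mostly on the Ezh2 side. For Cd79a the sgEzh2 + sgRunx1 libraries ran from 0.726 to 7.24 CPM and for Ms4a1 from 0 to 0.243 CPM, overlapping the Runx1 guide libraries for Cd79a and below them for Ms4a1. Bmi1 was an exception, at 48.6 to 84.7 CPM with both guides, within the range of the Ezh2 guide libraries.

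**Figure D5:**
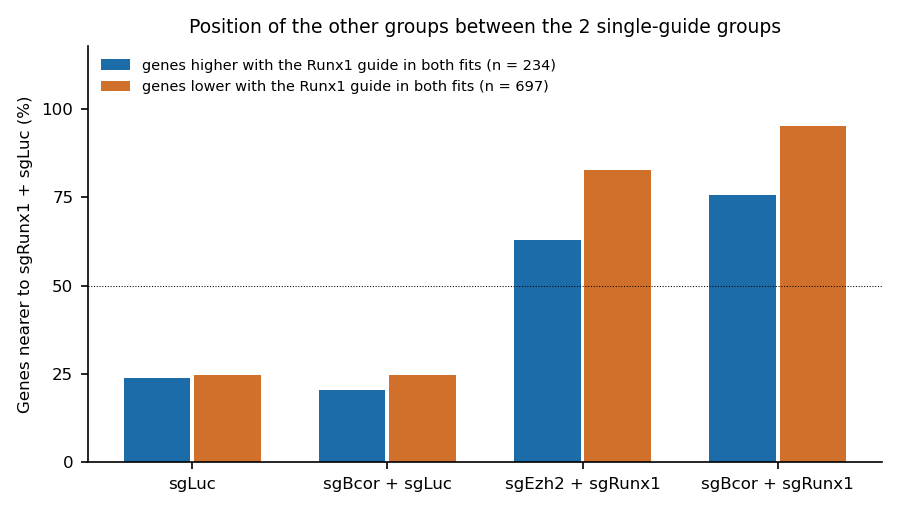
Share of the 234 genes higher and the 697 genes lower with the Runx1 guide in both fits for which the mean of another group lay nearer to the Runx1 guide than to Ezh2 guide replicates 1 and 2 (percent, from 0). The bars of sgLuc and sgBcor + sgLuc lie at 20.5% to 24.8% and those of the groups that carry the Runx1 guide at 62.8% to 95.3%.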

How the data were processed

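Raw read counts per Ensembl gene were deposited by the authors for 22 libraries, 1 column each. The submitters' processing notes name fastp, HISAT2 and HTSeq with build mm9, without their versions, strand use or annotation, so genes overlapping on opposite strands cannot be told apart. Of 47069 gene IDs 46488 (98.8%) matched GENCODE M21 (GRCm38), the source of gene positions. Counts were filtered with filterByExpr (minimum count 10), scaled by TMM and tested in R 4.3.3 with edgeR 4.0.16 (glmQLFit and glmQLFTest) on the 16 edited libraries (11 residual degrees of freedom), and on 15 (10) without Ezh2 guide replicate 3, with Benjamini-Hochberg adjustment over all genes tested. The standard error is the log2 fold change divided by the root of F. The steps were tested on simulated counts with known changes. These had the same spread in every library and no library like Ezh2 guide replicate 3, so they do not cover that case. Members and the 45 gene lists (703 symbols, 4 of them not in the table) were chosen with earlier results of these data known. The named genes are Runx1, Ezh2 and Bcor, the 12 largest differences in each direction called in both fits (mean at least 2 CPM, groups apart, with predicted genes, pseudogenes and receptor segments passed over) and list members. Rag1, Dntt, Cd8a, S100a8, Hoxa9, Ezh1, Eed, Suz12, Cbfb, Pf4, Itga2b and the genes of the closing observations were chosen after their values were seen. Alternatives used DESeq2 1.42.0 and limma 3.58.1 (voom with quality weights), another filter, scaling, set of libraries or replicate block. Total counts per library limit the precision, and intervals cover counting error only.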

Additional observations from a re-analysis of the deposited data

Results flagged for a closer look

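Among the levels of the named genes in the control and double-guide groups, 7 of 54 examined had 1 library far from the rest of its group. None lies in the 2 groups compared, which have 3 libraries each and were not examined in this way. The rule's nominal rate is about 1 in 20 for normally distributed, independent values. These levels are CPM, some of them near 0, and genes of the same library are not independent. Whether 7 of 54 exceeds chance was therefore not tested. In the 4 sgEzh2 + sgRunx1 libraries, Bcor in replicate 2 was low, at 54.2 CPM against 64.3 for the nearest library. Nectin2 in replicate 2 of that group was high, at 22.8 CPM against 15.03. Fcer1a in replicate 2 was at 0.121 CPM, Cacna1i in replicate 1 at 0.275 CPM, and in both cases the nearest library was at 0. Ms4a1 in replicate 3 was at 0.243 CPM against 0.0174. In the 6 sgLuc libraries, replicate 3 was high for Clec4b2, at 14.1 CPM against 8.86, and for Vcam1, at 139.8 CPM against 62.0. The highest control library for Vcam1 still lay below the Runx1 guide libraries, at 193, 157 and 211 CPM.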

How the results depend on the processing

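Alternatives moved the number of calls more than their direction. With all libraries (397 higher, 1163 lower, 1560 in all) the 2 groups alone gave 30, 304 and 334, all 22 libraries 770, 1888 and 2658, the Wald test of DESeq2 876, 1864 and 2740, and limma voom with quality weights 2108, 3050 and 5158, while no filter gave 241 higher. Without replicate 3 (415, 886 and 1301) the 2 groups alone gave 1240, 2016 and 3256, the Wald test 824 higher and 2126 in all, and voom 1926, 2919 and 4845. Leaving out 1 library gave 49 to 541 higher, 150 to 1540 lower and 199 to 2081 in all, and without replicate 3 73 to 243, 195 to 379 and 268 to 581. Same-numbered libraries had a correlation of deviations from the group mean of 0.0292, 0.0999 and 0.133, and other pairs of −0.150 to 0.139. Deviations within a group are not independent, and Ezh2 guide replicate 3 stood far from its group. These values therefore do not decide whether the numbers pair the samples. A fit with the replicate number as a block gave 198 higher, 601 lower and 799 in all, and without replicate 3 273, 534 and 807. Hmga2 with all libraries, at a log2 fold change of −0.09, was 3.45 with voom, 2.90 without Ezh2 guide replicate 3 and −0.64 without Ezh2 guide replicate 2, the range over the omissions. Of 5061 settings of named results 3888 kept their side of the threshold, 168 passed it, 1003 lost it and 2 changed sign where a call was involved. Changes of sign between values that were both not called are counted among the 3888. The cause was not tested. Of the 24 genes with the largest differences 8 kept both calls in every omission, and 6 of them in every setting. Depth was at least 39690068 counts per library, and 3 mice a group, or 2, limit the precision.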

Other observations

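Some genes outside the lists and below the 12 largest differences stood out for how little their libraries varied, and they were chosen after their values were seen. Igfbp4, which binds insulin-like growth factors, stood at 531, 508 and 696 CPM in Runx1 guide replicates 1, 2 and 3 and at 165, 185 and 173 CPM in Ezh2 guide replicates 1, 2 and 3 (log2 fold change 1.73 ± 0.18, edgeR FDR 0.00162, and 1.72 ± 0.20, FDR 0.000431). Zfand2a, a zinc finger gene induced by protein stress, stood at 71.8, 69.7 and 70.4 CPM and 29.3, 30.9 and 27.04 CPM (log2 fold change 1.28 ± 0.13, edgeR FDR 0.00157, and 1.23 ± 0.14, FDR 0.000413). In both genes replicate 3 lay with replicates 1 and 2, unlike the summed T cell identity level. Control libraries ran from 189 to 417 CPM for Igfbp4 and from 17.8 to 36.4 CPM for Zfand2a, all below the Runx1 guide libraries. Pim2, a serine kinase that favours survival, went the other way, at 5.36, 4.26 and 5.82 CPM against 27.3, 27.5 and 26.2 CPM, with controls from 13.4 to 21.7 CPM between the groups (log2 fold change −2.39 ± 0.26, edgeR FDR 0.00162, and −2.41 ± 0.27, FDR 0.000413). These 3 calls held in every omission of a library from both fits.

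Fbxo10, which encodes the substrate-binding part of a ubiquitin ligase, was lower with the Runx1 guide, at 2.78, 3.05 and 1.68 CPM against 52.1, 44.04 and 4.76 CPM, where replicate 3 was much closer to the Runx1 guide libraries than replicates 1 and 2 (log2 fold change −3.75 ± 0.63, edgeR FDR 0.00637, and −4.26 ± 0.28, FDR 5.20e-06). Lmo1, a LIM-only transcription cofactor, stood at 1.81, 2.49 and 3.59 CPM and 27.3, 29.9 and 0.527 CPM. Its level in replicate 3 lay below every Runx1 guide library, and its difference was called without replicate 3 only (log2 fold change −2.87 ± 0.85, edgeR FDR 0.0514, and −3.44 ± 0.29, FDR 8.08e-05). Zfp827, a zinc finger gene, stood at 0.128, 0.0224 and 0.0517 CPM and 3.63, 3.55 and 33.5 CPM, with replicate 3 the highest (log2 fold change −7.62 ± 1.08, edgeR FDR 0.00348, and −5.71 ± 0.63, FDR 0.000379). Fbxo10 and Zfp827 kept both calls in every omission.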
